A study of Mus musculus with 6 samples.

Results

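A set of 10 genes of fatty acid synthesis, elongation and desaturation was followed in the colon of young mice whose dams had or had not received dextran sulfate sodium (DSS) in pregnancy. The genes were taken by symbol from the deposited table, in which all 10 of 10 were found among 20594 genes, and all 10 passed the filter on low values that left 13594 genes for the fit. The set holds the fatty acid synthase gene Fasn, the elongase genes Elovl1, Elovl5, Elovl6 and Elovl7, the stearoyl-CoA desaturase genes Scd1 and Scd2, and the front-end desaturase genes Fads1, Fads2 and Fads3. The members were selected on FPKM values and group differences of these same libraries, so their differences are given as a description, with no test.

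Colon RNA was measured in 6 libraries from C57BL/6J offspring at 3 weeks of age. In the maternal DSS group (3 libraries) the dams received 1.5% DSS, a sulfated polysaccharide that damages gut epithelium and gives mice colitis. In the control group (3 libraries) they received 0% DSS. The labels date the exposure from embryonic day 13 to embryonic day 19, while the design text speaks of 5 days, and neither describes DSS given to the offspring. The question was how colitis of the dam relates to the gut of her young. Each title opens with the word for 3 offspring, which may mean a pool of 3 animals or the size of the group, and no dam, litter, sex or batch is named. The spread between libraries may therefore be partly technical, and libraries of a group may share a dam.

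Fatty acid synthase builds palmitate from acetyl and malonyl units, and the elongases lengthen palmitate and dietary fatty acids in the endoplasmic reticulum. Stearoyl-CoA desaturases place a double bond in saturated chains and so make the monounsaturated fatty acids of membranes and stored fat, while the front-end desaturases turn dietary essential fatty acids into long polyunsaturated ones. In mice many of these genes are targets of the sterol regulatory element-binding protein SREBP-1c and of liver X receptors. In skin, sebaceous glands express their own desaturases and elongases for sebum.

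The values are FPKM, fragments per length of transcript scaled to the size of the library, a scale on which levels of different genes can be set side by side. Between 13249 and 13739 genes per library reached 1 FPKM, and FPKM summed to between 403673 and 492719 per library. Read totals are unknown, so no counting interval is given. Colon markers were high in all 6 libraries, with the carbonic anhydrase gene Car1 at 5450.3 to 7276.7 FPKM in maternal DSS and 4528.1 to 5631.6 FPKM in control libraries, and with the distal gut gene Hoxb13 at 43.2 to 101.3 FPKM and 73.2 to 103.6 FPKM. Maternal DSS replicate 1 stood apart from replicates 2 and 3 of its group in some of these colon markers. Hoxb13 had 43.2, 101.3 and 93.6 FPKM and Muc2 1002, 578.7 and 517.6 FPKM in replicates 1, 2 and 3, while Car1 had 7013.9, 5450.3 and 7276.7 FPKM. It also stood apart in a pair of marker lists. First, 12 genes of stratified squamous epithelium, the lining of skin and anal canal, summed to 262.3, 50.3 and 14.7 FPKM in maternal DSS replicates 1, 2 and 3 and to between 77.2 and 85.8 FPKM in controls. Second, 8 genes of small intestine and Paneth cells summed to 25.0, 131.7 and 126.1 FPKM in maternal DSS replicates 1, 2 and 3, against 21.3 to 37.2 FPKM in controls.

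Scd2 was the most abundant member and had the largest difference between the groups, being lower in maternal DSS offspring. Scd1, Elovl6 and Fads3 were highest in maternal DSS replicate 1, and Fasn was lowest in replicate 3 of that group. Elovl1, Elovl5 and Elovl7 varied little. Of the 10 members, 8 had a negative log2 fold change (maternal DSS minus control), Fads3 among them at a value of 0.00, as did 59.7% of all genes tested. The median over the members was -0.07, against -0.04 over all genes tested.

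**Figure D1:**
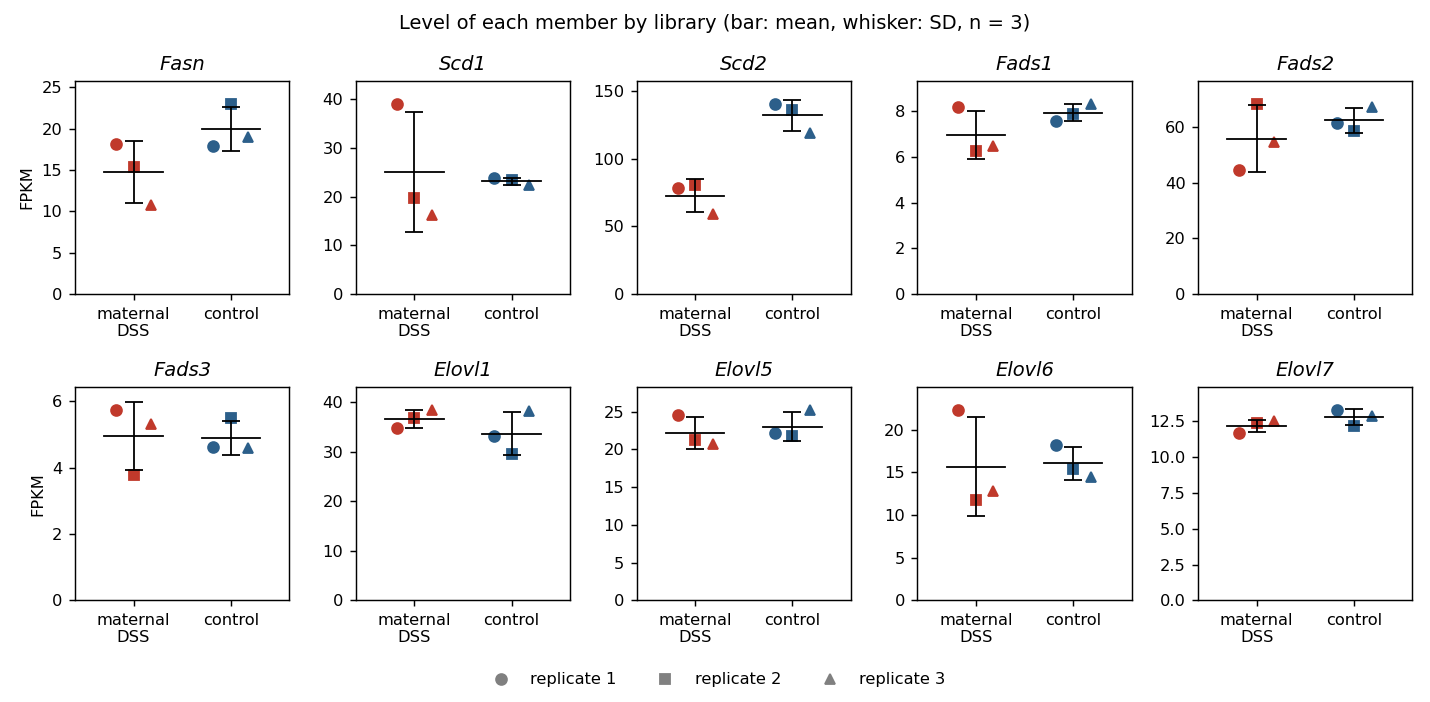
FPKM (y axis, from 0) of the 10 members in the 3 maternal DSS libraries (red, left) and the 3 control libraries (blue, right), with 1 symbol shape per replicate number, the mean as a bar and the SD as a whisker. For Scd2 the maternal DSS libraries lie between 58.9 and 80.7 FPKM and the controls between 119.2 and 140.4 FPKM, and in the other 9 panels the groups overlap.

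Scd2 encodes the stearoyl-CoA desaturase that mice use for lipid synthesis in early life and in the nervous system. Its gene lies on chromosome 19 (GRCm38, 44293676 to 44306864) in a cluster with Scd3, Scd4 and Scd1. Scd2 had 78.6, 80.7 and 58.9 FPKM in maternal DSS replicates 1, 2 and 3, against 140.4, 136.1 and 119.2 FPKM in control replicates 1, 2 and 3. All 3 maternal DSS libraries were below all 3 controls, and replicate 3 was the lowest of its group in both. The means were 72.7 ± 12 FPKM in maternal DSS and 131.9 ± 11.2 FPKM in control libraries (SD, n = 3 each), a ratio of 0.551. The log2 fold change was -0.86 (SE 0.14) on the log2(FPKM + 1) scale. It was the 1 member whose groups did not overlap in the deposited values, where 9.14% of all genes tested were lower without overlap and 4.92% higher without overlap. With values rescaled to a fixed sum per library Elovl7 also did not overlap. Under that scaling 10897 of the 13594 genes tested had negative log2 fold changes, and the share of all genes without overlap was not computed. Leaving out each library in turn gave Scd2 log2 fold changes from -0.94 to -0.72.

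The 4 Scd genes are close copies, and the coding sequences of Scd1 and Scd2 were identical at 965 of 1068 aligned bases (90.4%). Their longest identical run was 147 bases. A stretch of coding sequence from that run (bases 559 to 648 of the Scd2 coding sequence, counted from 1 at the start codon, GENCODE M21) shows where a read could not be given to a single gene. Capitals mark bases that differ from Scd2, and the stretch is the same in Scd1, Scd2 and Scd3.
Scd1: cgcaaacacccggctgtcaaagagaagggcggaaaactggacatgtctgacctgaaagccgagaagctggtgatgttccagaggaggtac
Scd2: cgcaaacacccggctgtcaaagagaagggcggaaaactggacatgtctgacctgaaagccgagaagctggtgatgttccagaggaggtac
Scd3: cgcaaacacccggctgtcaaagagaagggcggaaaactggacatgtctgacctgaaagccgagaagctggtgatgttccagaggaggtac
Scd4: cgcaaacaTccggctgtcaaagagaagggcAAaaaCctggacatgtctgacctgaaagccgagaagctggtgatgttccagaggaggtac

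The stretch that differs most between Scd1 and Scd2 (bases 115 to 204 of the Scd2 coding sequence) shows what separates the genes, with 18 differing bases in Scd1, 16 in Scd3 and 15 in Scd4.
Scd1: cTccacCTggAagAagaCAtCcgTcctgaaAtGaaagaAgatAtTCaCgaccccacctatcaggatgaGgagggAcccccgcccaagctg
Scd2: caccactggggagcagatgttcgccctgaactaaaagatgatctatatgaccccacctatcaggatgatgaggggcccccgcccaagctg
Scd3: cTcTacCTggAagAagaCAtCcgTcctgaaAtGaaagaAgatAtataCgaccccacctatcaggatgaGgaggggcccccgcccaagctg
Scd4: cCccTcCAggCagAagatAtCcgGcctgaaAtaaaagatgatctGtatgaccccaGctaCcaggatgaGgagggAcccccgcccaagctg
Over the whole transcript, 0.896% of the 100-base windows of Scd2 also occur in a transcript of another gene, against 2.66% for Scd1, 2.54% for Scd3 and 0.53% for Scd4. The length of the reads and the treatment of reads that match several genes are not given in the sources used here.

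Scd1 encodes the stearoyl-CoA desaturase of liver, fat and sebaceous gland (chromosome 19, 44394450 to 44407709). It had 39.1, 19.7 and 16.3 FPKM in maternal DSS replicates 1, 2 and 3, against 23.8, 23.4 and 22.4 FPKM in control replicates 1, 2 and 3. Replicate 1 of maternal DSS was above every control and replicates 2 and 3 were below every control, so the groups overlapped. Replicates 2 and 3 were both below every control in 6 of the 10 members, whatever the level of replicate 1. The same held for 29.4% of all genes tested. The coefficient of variation was 49.0% in maternal DSS and 3.05% in control libraries. The log2 fold change was 0.01 (SE 0.28), and -0.35 (SE 0.10) without maternal DSS replicate 1. Without control replicate 3, after rescaling to a fixed sum and with array weights it was also negative.

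Ratios and shares that contain Scd2 carry its lower level in maternal DSS libraries, so those given here are no separate result. The FPKM ratio of Scd1 over Scd2 was 0.497, 0.244 and 0.277 in maternal DSS replicates 1, 2 and 3, against 0.17, 0.172 and 0.188 in control replicates 1, 2 and 3. All 3 ratios of maternal DSS lay above those of control libraries, and the share of all gene pairs with such ratios was not computed. Scd2 made up 27.3%, 29.2% and 24.9% of the summed FPKM of the 10 members in maternal DSS replicates 1, 2 and 3, against 41.0%, 40.8% and 36.0% in controls. The sum over the 10 members was 266.8 ± 26.7 FPKM in maternal DSS and 335.6 ± 5.98 FPKM in control libraries (SD, n = 3 each). Without Scd2 it was 194.1 ± 15.6 FPKM and 203.7 ± 7.64 FPKM, and the groups overlapped.

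Scd3, Elovl3 and Elovl4, which mouse skin and sebaceous glands express, had the same order of libraries as Scd1 at the extremes. Scd3 had 9.66, 1.36 and 0.148 FPKM in maternal DSS replicates 1, 2 and 3, against 3.45, 3.31 and 1.99 FPKM in controls. Elovl4, which builds the very long acyl chains of the skin barrier, had 20.7, 2.83 and 0.92 FPKM, against 8.36, 5.46 and 4.81 FPKM in controls. Elovl3, an elongase of sebaceous gland and brown fat, had 5.07, 0.875 and 0.215 FPKM, against 1.66, 1.50 and 1.45 FPKM in controls. In all 3 genes maternal DSS replicate 1 lay above every control and replicates 2 and 3 below every control. Replicates 2 and 3 lay below every control in 29.4% of all genes tested, whatever the level of replicate 1. Their log2 fold changes were -0.33 (SE 0.72), -0.38 (SE 0.79) and -0.08 (SE 0.52) for Scd3, Elovl4 and Elovl3, with limma adjusted p of 0.877, 0.869 and 0.962. Without maternal DSS replicate 1 they were -1.23, -1.38 and -0.75, with an adjusted p of 0.148 for each in limma. The remaining family genes Scd4, Fads6 and Elovl2 were at or below 0.56 FPKM in every library and were not tested.

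Keratin genes of stratified squamous epithelium had that order too. Krt14, a keratin of basal squamous cells, had 38.7, 6.20 and 2.37 FPKM in maternal DSS replicates 1, 2 and 3, against 16.5, 11.4 and 12.5 FPKM in controls, and Krt5, its partner, had 39.7, 4.75 and 1.59 FPKM, against 11.7, 7.63 and 8.78 FPKM. All 12 genes of the squamous list were highest in maternal DSS replicate 1 and lowest in maternal DSS replicate 3, and none averaged under 0.1 FPKM. The same held for all 6 genes of a sebaceous gland list, which summed to 36.8, 8.51 and 3.98 FPKM in maternal DSS replicates 1, 2 and 3 and to between 11.7 and 17.9 FPKM in controls. Both lists were written after the values had been seen. Adipocyte markers had another order, summing to 126.3, 190.6 and 173.7 FPKM in maternal DSS replicates 1, 2 and 3 and to 98, 119.3 and 199.1 FPKM in controls. The part of squamous or sebaceous tissue in the values of Scd1, Scd2, Scd3, Elovl3, Elovl4 and Elovl6 was not tested. In bulk tissue, fewer cells of a type and less RNA per cell cannot be told apart.

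**Figure D2:**
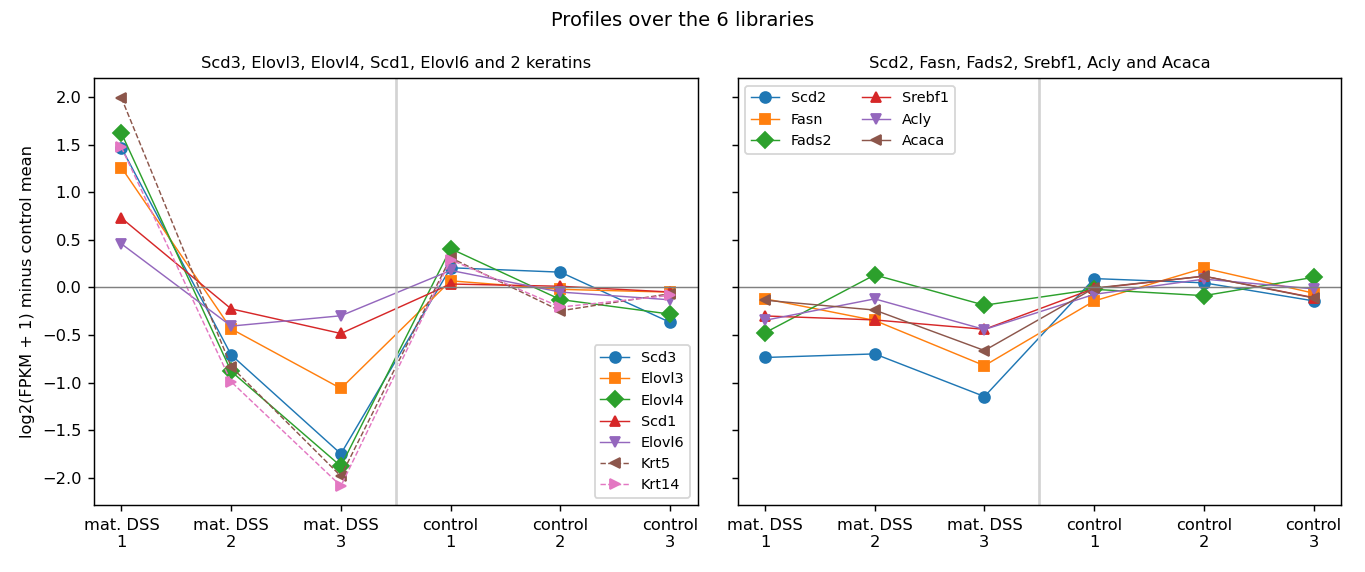
log2(FPKM + 1) minus the control mean (y axis) in the 3 maternal DSS and 3 control libraries (x axis), with lines that tie the points of a gene and stand for no order of replicates. On the left Scd3, Elovl3, Elovl4, Scd1 and Krt5 and Krt14 (dashed) are highest in maternal DSS replicate 1 and lowest in replicate 3. On the right Scd2, Srebf1, Acly and Acaca are below the control libraries in all 3 maternal DSS libraries, as are 9.14% of all genes tested.

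Markers of enteric neurons were lower in the maternal DSS libraries, summing to 31.7, 33.2 and 32.2 FPKM in replicates 1, 2 and 3 and to 41.4, 37.4 and 35.5 FPKM in controls. All 7 tested neuron markers had negative log2 fold changes, with a median of -0.18 against -0.04 over all genes tested, of which 59.7% were negative, and 1 of them, the nitric oxide synthase gene Nos1, had an unadjusted p under 0.05 (adjusted p = 0.619 in limma). Markers of enteric glia and Schwann cells, which like neurons hold much lipid, summed to 75, 56.9 and 47.1 FPKM in maternal DSS replicates 1, 2 and 3 and to 58.1, 55.3 and 47.3 FPKM in controls. Erbb3, a receptor gene that epithelium also expresses, made up most of that sum, with 57.4, 47.5 and 37.8 FPKM in maternal DSS replicates 1, 2 and 3, against 46.6, 44.5 and 36.3 FPKM in controls. Without it the other 7 markers summed to 17.6, 9.39 and 9.28 FPKM in maternal DSS replicates 1, 2 and 3, against 11.5, 10.9 and 11 FPKM in controls, so replicate 1 was above and replicates 2 and 3 were below all controls. Smooth muscle markers were also lower in 7 of 7 (median -0.10) and fibroblast markers in 5 of 6 (median -0.08), and none of these 13 genes had groups without overlap. No neuron or glia marker averaged under 0.1 FPKM. The part of neurons, glia, smooth muscle and fibroblasts in the Scd2 values was not tested.

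Fasn, which makes palmitate (chromosome 11, 120805958 to 120825166), had 18.2, 15.4 and 10.8 FPKM in maternal DSS replicates 1, 2 and 3, against 17.9, 23.0 and 19 FPKM in control replicates 1, 2 and 3. Replicates 2 and 3 of maternal DSS were below all controls, as in 29.4% of all genes tested, and replicate 1 was just above control replicate 1. The means were 14.8 ± 3.72 FPKM in maternal DSS and 20 ± 2.68 FPKM in control libraries (SD, n = 3 each). The log2 fold change was -0.43 (SE 0.18), and it ranged from -0.59 without maternal DSS replicate 1 to -0.24 without maternal DSS replicate 3, the lowest library. The promoter of Fasn is shown because SREBP proteins act there together with the CCAAT-binding factor NF-Y in mammals. The window spans a transcript start (RefSeq, GRCm38.p6, chr11:120824498-120824797, minus strand), and capitals mark CCAAT or its reverse complement, ATTGG, on either strand.
Fasn: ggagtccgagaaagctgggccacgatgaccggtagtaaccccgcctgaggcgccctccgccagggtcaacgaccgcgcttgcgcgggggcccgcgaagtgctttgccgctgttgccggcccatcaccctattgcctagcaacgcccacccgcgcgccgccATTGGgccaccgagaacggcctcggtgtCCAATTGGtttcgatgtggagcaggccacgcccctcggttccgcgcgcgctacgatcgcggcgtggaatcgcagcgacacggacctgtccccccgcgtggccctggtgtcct
CCAAT occurred 3 times in this window, at positions -90, -62 and -59 from the transcript start, and the matches at -62 and -59 overlap. At least 1 match was found in 37.4% of all 32851 promoter windows of that length and at least 3 matches in 3.37%. Scd1, Scd2 and Fads1 were not searched. Among the other members searched, Elovl5 and Fads3 held 2 matches and Elovl1 held 1 in 1 of its 2 windows, while Elovl6, Elovl7 and Fads2 held none. The E-box CACGTG was in the Elovl5 window and in 7.15% of all windows. TCACNCCAC, a sterol regulatory element written on both strands, was in no window of the 7 members searched and in 1.24% of all windows. A match is a run of letters and shows no binding.

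The elongases were the steadiest members apart from Elovl6. Elovl6, which lengthens palmitate to stearate (chromosome 3, 129532386 to 129638495), had 22.3, 11.8 and 12.8 FPKM in maternal DSS replicates 1, 2 and 3, against 18.2, 15.4 and 14.5 FPKM in controls. As for Scd1, replicate 1 of maternal DSS was above and replicates 2 and 3 were below all 3 controls. In 29.4% of all genes tested replicates 2 and 3 were below all controls. The log2 fold change was -0.08 (SE 0.22), and -0.35 (SE 0.11) without maternal DSS replicate 1.

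Elovl1, which makes saturated very long chains for sphingolipids (chromosome 4, 118426874 to 118432953), had 34.7, 36.8 and 38.4 FPKM in maternal DSS replicates 1, 2 and 3, against 33.2, 29.5 and 38.2 FPKM in controls. Elovl5, which lengthens polyunsaturated chains (chromosome 9, 77917365 to 77984519), had 24.6, 21.2 and 20.7 FPKM, against 22.1, 21.7 and 25.2 FPKM. The groups overlapped for both, with log2 fold changes of 0.13 (SE 0.10) for Elovl1 and -0.05 (SE 0.10) for Elovl5. Elovl7, an elongase of saturated long chains (chromosome 13, 108214326 to 108287109), had 11.7, 12.4 and 12.5 FPKM in maternal DSS replicates 1, 2 and 3, against 13.3, 12.2 and 12.9 FPKM in controls. Its highest value was 1.14 times its lowest over the 6 libraries, and its log2 fold change was -0.06 (SE 0.07). After rescaling to a fixed sum per library it was -0.17, and the maternal DSS libraries were then all below the controls. That scaling also moved the median of all genes tested to -0.14.

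The groups overlapped for all 3 front-end desaturases. Fads2, which takes the first desaturation step on essential fatty acids (chromosome 19, 10062765 to 10101503), had 44.4, 68.2 and 54.5 FPKM in maternal DSS replicates 1, 2 and 3, against 61.3, 58.5 and 67.0 FPKM in controls. Its lowest and highest values were both in the maternal DSS group. Its log2 fold change was -0.18 (SE 0.15), -0.03 without maternal DSS replicate 1 and 0.12 with array weights. Fads1, which takes the following step toward arachidonic acid (chromosome 19, 10182877 to 10196874), had 8.18, 6.27 and 6.48 FPKM, against 7.59, 7.86 and 8.32 FPKM in controls. Replicates 2 and 3 of maternal DSS were below all controls, as in 29.4% of all genes tested. The log2 fold change of Fads1 was -0.17 (SE 0.11), or -0.27 without maternal DSS replicate 1. Fads3, which acts on sphingoid bases (chromosome 19, 10040855 to 10060113), had 5.74, 3.79 and 5.31 FPKM, against 4.62, 5.49 and 4.60 FPKM, with a log2 fold change of 0.00 (SE 0.14). The 3 Fads genes are neighbours, and their lowest maternal DSS libraries were replicate 1 for Fads2 and replicate 2 for Fads1 and Fads3. The FPKM ratio of Fads2 over Fads1 was 5.43, 10.9 and 8.42 in maternal DSS replicates 1, 2 and 3 and 8.08, 7.44 and 8.05 in controls.

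**Figure D3:**
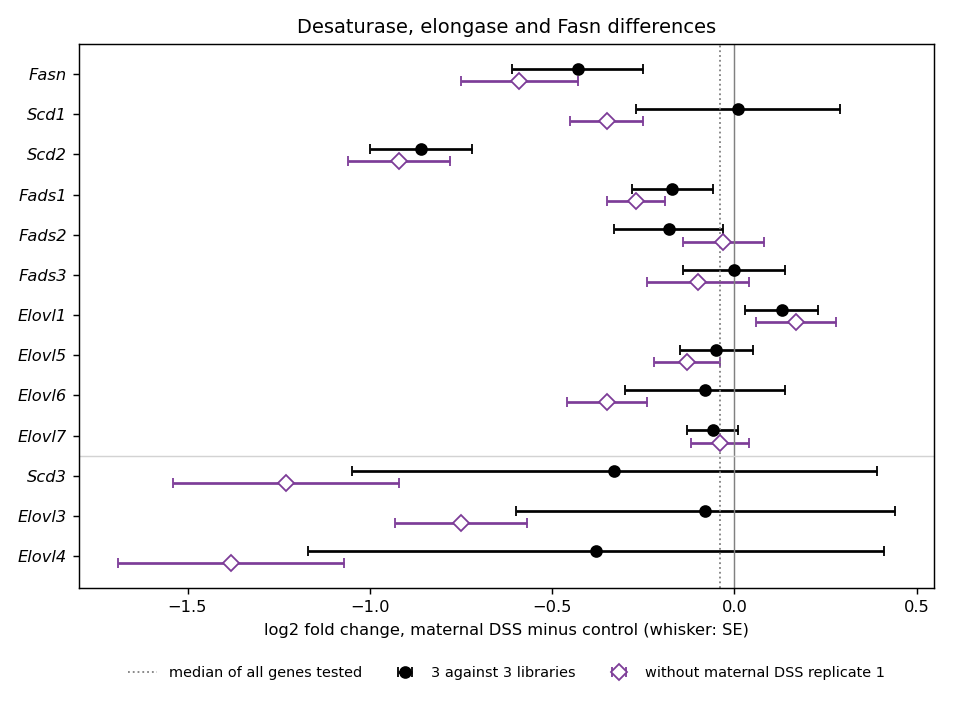
log2 fold change, maternal DSS minus control (x axis), with SE, of the 10 members and of Scd3, Elovl3 and Elovl4, over all libraries (filled circles) and without maternal DSS replicate 1 (open diamonds), and the median of all genes tested as a dotted line. Scd2 is at -0.86 and -0.92, while Scd1 is at 0.01 and -0.35.

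Over all 6 libraries the order of mean levels was Scd2 (102.3 FPKM), Fads2 (59.0 FPKM), Elovl1 (35.1 FPKM), Scd1 (24.1 FPKM), Elovl5 (22.6 FPKM), Fasn (17.4 FPKM), Elovl6 (15.8 FPKM), Elovl7 (12.5 FPKM), Fads1 (7.45 FPKM) and Fads3 (4.93 FPKM). Each of Scd2, Fads2, Elovl7 and Fads1 was above the next gene in this order in 6 of 6 libraries. The ranges of neighbouring genes overlapped from Elovl1 through Elovl7, so the order among these 6 genes was not fixed, and Scd1 was above Elovl5 in 3 of 6 libraries. The range of Scd2 over all libraries also reached into that of Fads2, and the Scd2 over Fads2 ratio was 1.77, 1.18 and 1.08 in maternal DSS replicates 1, 2 and 3 and 2.29, 2.33 and 1.78 in controls. The spread was widest for Scd1 and Scd2, whose highest library was 2.39 and 2.38 times the lowest, then for Fasn (2.13 times) and Elovl6 (1.89 times).

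The likeness of profiles was measured as the root mean square difference of log2(FPKM + 1) over the 6 libraries after centring each gene on its mean, among 8462 tested genes that averaged at least 5 FPKM. Nearest to Scd2 were Tppp, a tubulin polymerisation gene (distance 0.15), Filip1l (0.191) and Spon2 (0.193). Tppp had 13.5, 12.7 and 12.9 FPKM in maternal DSS replicates 1, 2 and 3, against 25.6, 26.3 and 20.1 FPKM in controls. Nearest to Scd1 were Apobec2 (0.08), Cyp2f2 (0.081) and the iron transporter gene Slc11a2 (0.11), and Slc11a2 had 28.1, 12.6 and 10.4 FPKM in maternal DSS replicates 1, 2 and 3, against 17.9, 18.9 and 15.6 FPKM in controls. Nearest to Fasn were Akap12 (0.062), the fibronectin gene Fn1 (0.075) and Mir196a-1 (0.078). Nearest to Elovl6 were Srsf11 (0.049), Epha2 (0.066) and the mucin gene Muc2 (0.082), with Muc2 at 1002 FPKM in maternal DSS replicate 1 and 655 to 831 FPKM in controls.

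For the other 6 members the 3 nearest genes lay at distances of 0.012 to 0.062. These were Ndufa5, Slc35b1 and Mrpl27 for Elovl1, Farp2, AI661453 and Kbtbd11 for Elovl5, and Slc35f6, Arfip1 and Styk1 for Elovl7. For the front-end desaturases they were Ahsa2, Tmem56 and Pml (Fads1), Slc1a1, Hif1a and Slc6a8 (Fads2), and Maco1, Poglut2 and Pycr1 (Fads3). No member was among the 3 nearest genes of another. Among the members themselves Scd1 and Elovl6 were each nearest to the other (distance 0.161), as were Fads1 and Elovl5 (0.079), and Scd2 was nearest to Fasn (0.262).

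Genes that supply, regulate and use the products of these enzymes were examined in 8 lists written from textbook knowledge, with 81 genes, of which 77 were tested. No gene of these lists passed an adjusted p of 0.05 in limma (smallest adjusted p = 0.619), and none of the 13594 genes tested did (0%; smallest adjusted p = 0.493). With array weights, which weigh each library by its fit, 4933 of the 13594 genes passed, 33 of the 77 among them (25 lower, 8 higher). That fit had 4648 lower and 2136 higher genes at an unadjusted p under 0.05. Without maternal DSS replicate 1 there were 12 genes that passed the adjusted p, none of the 77 among them. Over all 6 libraries without weights, 1064 genes (7.83%) had an unadjusted p under 0.05, 30.9% of them higher. That share was 50% with median-ratio scaling and 8.54% after rescaling to a fixed sum. Of the 77 genes, 7 were lower and 7 higher with an unadjusted p under 0.05, where 5.41% of all genes tested were lower and 2.42% higher at that p. Groups did not overlap for 9 of the 77 with lower and for 10 with higher values in maternal DSS. Of all genes tested, 9.14% were lower and 4.92% higher without overlap. Cholesterol synthesis genes were mostly lower, fatty acid oxidation genes all higher, and the lists of elongation partners and electron donors were mixed.

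Among regulators, Srebf1, which encodes SREBP-1 (the activator of fatty acid synthesis genes), had 13, 12.6 and 11.7 FPKM in maternal DSS replicates 1, 2 and 3, against 16.1, 17.7 and 15.0 FPKM in controls. All 3 maternal DSS libraries were below all 3 controls, as for 9.14% of all genes tested. The log2 fold change of Srebf1 was -0.36 (SE 0.09, unadjusted p = 0.00376, adjusted p = 0.619 in limma), the smallest p of the regulators. Srebf2, which encodes the activator of cholesterol genes, and Ppargc1b, a coactivator, had log2 fold changes of -0.21 and -0.27. Of the 12 tested regulators 7 were lower, with a median of -0.03 against -0.04 over all genes tested, of which 59.7% were lower.

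Among the genes that supply malonyl-CoA and NADPH, 8 of 11 were lower, with a median of -0.07. Of all genes tested 59.7% were lower, with a median of -0.04. With median-ratio scaling 6 of the 11 were lower (median -0.02). Acly, which makes the acetyl-CoA used by fatty acid synthesis, had 57.6, 67.5 and 53.8 FPKM in maternal DSS replicates 1, 2 and 3, against 69.8, 78.1 and 72.7 FPKM in controls. Acaca, which turns it into malonyl-CoA, had 6.37, 5.86 and 4.11 FPKM, against 7.05, 7.78 and 6.49 FPKM. The groups of both genes did not overlap, where 9.14% of all genes tested were lower without overlap and 4.92% higher without overlap. Their log2 fold changes were -0.30 (SE 0.10) and -0.35 (SE 0.15), with an adjusted p of 0.619 for each in limma. Mid1ip1, an activator of acetyl-CoA carboxylase, had a log2 fold change of -0.28. Idh1, an NADPH source, had one of 0.21, and its groups did not overlap either, with maternal DSS higher. The ratio of Fasn over Acaca was 2.85, 2.62 and 2.63 in maternal DSS replicates 1, 2 and 3 and 2.54, 2.96 and 2.93 in controls.

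The partners of the elongases in the elongation cycle had a median of 0.03, with 3 of 6 lower. Their 3 smallest p belonged to the dehydratase genes Hacd3 (log2 fold change -0.15), Hacd4 (-0.16) and Hacd2 (0.14). Of the 4 electron donor genes, which pass electrons to the desaturases, Cyb5b had -0.12, Cyb5r3 0.07 and Cyb5a 0.07. Of 10 tested genes of fatty acid activation and glycerolipid use 7 were higher, with a median of 0.13, where 40.3% of all genes tested were higher. Those named by smallest p were Dgat1, which makes triglyceride (0.23), Agpat2, which makes phosphatidic acid (0.26), and the phosphatidate phosphatase gene Lpin1 (0.29), each with an adjusted p of 0.619 in limma.

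Of 18 cholesterol synthesis genes 16 were lower, with a median of -0.16, and 4 were lower with groups that did not overlap, where 59.7% of all genes tested were lower and 9.14% lower without overlap. Mvd, of the mevalonate pathway, had a log2 fold change of -0.32 (SE 0.08), Dhcr7, the last enzyme of cholesterol synthesis, -0.26 (SE 0.09), and Sqle, which oxidises squalene, -0.27 (SE 0.11), each with an adjusted p of 0.619 in limma. With median-ratio scaling 14 of the 18 were lower (median -0.11), as were 6655 of all 13594 genes tested (median 0.0). After rescaling to a fixed sum per library all 18 were lower (median -0.27), as were 10897 of the 13594 (median -0.14). Of 13 fatty acid oxidation genes all 13 were higher (median 0.13) and 6 were higher without overlap, where 40.3% of all genes tested were higher and 4.92% higher without overlap. Those with the smallest p were the thiolase gene Acaa2 (log2 fold change 0.34), the carnitine carrier gene Slc25a20 (0.44) and Acadl (0.20). Without maternal DSS replicate 1 there were 2 of these 13 lower (median 0.13), against 61.0% of all genes tested (median -0.06). With median-ratio scaling all 13 were higher (median 0.18). After rescaling to a fixed sum 4 of the 13 were lower (median 0.02), where the median of all genes tested was -0.14. The small intestine and Paneth cell sum was higher in maternal DSS replicates 2 and 3 than in any control, and its part in these lists was not tested.

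**Figure D4:**
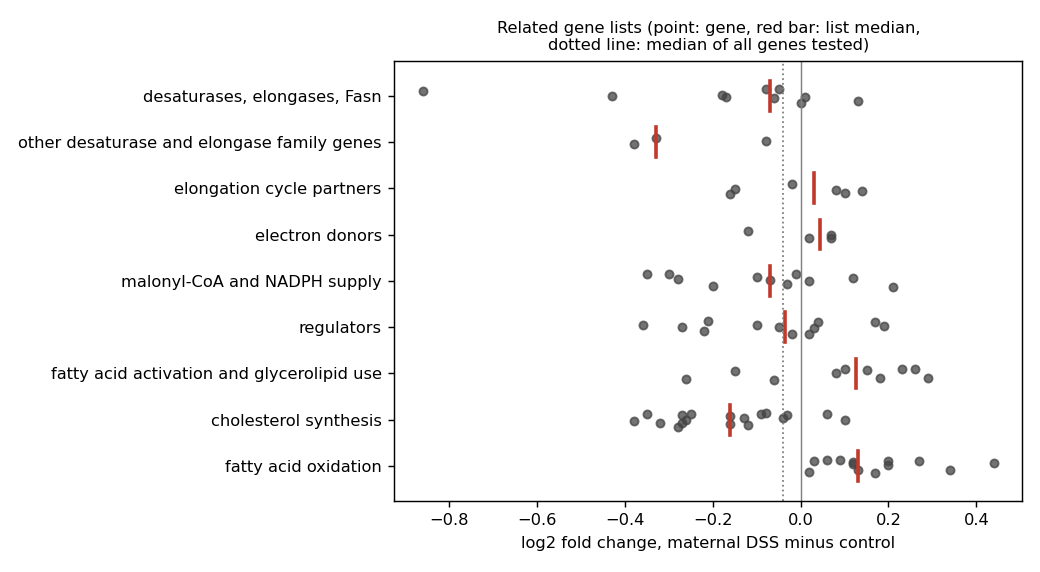
log2 fold change, maternal DSS minus control (x axis), of each tested gene (points, spread vertically for sight) in the set of desaturases, elongases and Fasn and in 8 related lists, with the list median as a red bar and the median of all genes tested (-0.04) as a dotted line. The cholesterol synthesis median is -0.16 and the fatty acid oxidation median 0.13.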

How the data were processed

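The authors deposited FPKM per gene for each library, and all 6 sample columns were used. Per the labels' protocols, the libraries are stranded mRNA libraries. Software named in the submitters' processing notes, with no role or order, includes DESeq2, StringTie 2.1.3b, HISAT2 2.1.0, Trimmomatic 0.38 and FastQC 0.11.7, and the build is mm10. Which gene annotation was counted is not stated in the labels. The table holds 151 values above 0 but under 0.0001 FPKM, so values are no whole-read steps and depth is unknown.

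Genes with at least 1 FPKM in at least 3 libraries were kept (13594 of 20594). Values were used as log2(FPKM + 1), which understates the change of low genes. limma 3.58.1 (R 4.3.3) fitted the group alone with a mean-variance trend, and p-values were adjusted over all genes tested (Benjamini-Hochberg, threshold 0.05). These p-values set the group difference against the spread between these libraries only, which may not hold the variance between animals or litters. The fit was tested on simulated data. Gene coordinates are RefSeq's on GRCm38.p6, the same assembly as mm10, with 19959 symbols matched (96.9%).

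The members, lists and alternatives were chosen with earlier results of these data known, and the squamous and sebaceous lists after the values had been seen. Named genes are all members, the 3 tested genes of each related list with the smallest unadjusted p, and the 3 genes nearest in profile to each member. Car1, Hoxb13, Muc2 (as a colon marker), Erbb3, Nos1, Krt5, Krt14 and Idh1 were chosen after their values were seen. Alternatives were median-ratio or fixed-sum (TPM type) scaling, another pseudocount, other filters, array weights, no trend, a replicate block and leaving out each library.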

Additional observations from a re-analysis of the deposited data

How the results depend on the processing

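In limma 0 genes passed the adjusted p, against 1064 at an unadjusted p under 0.05. Array weights gave 4933 and 6784 of the 13594 genes tested. The 4933 held 33 of the 77 related genes, 25 lower and 8 higher, and the 6784 were 4648 lower and 2136 higher. The filter at 5 FPKM gave 677 unadjusted, and the replicate block 1678 with 0 adjusted. The deviations of same-numbered libraries from their group means had correlations of 0.276, -0.384 and 0.404, and not every library correlated best with its own number. With 3 libraries per group these values cannot decide whether same-numbered libraries share a batch or litter. Leaving out 1 library gave 401 (without control replicate 2) to 3368 (without maternal DSS replicate 1) unadjusted and 0 to 12 adjusted, the 12 without maternal DSS replicate 1, none of them one of the 77 related genes. The other unadjusted counts that moved by over 1.5 times were 489 without control replicate 1, 628 without maternal DSS replicate 2 and 631 without maternal DSS replicate 3. The share of higher genes among the unadjusted calls was 30.9%, against 50% with median-ratio and 8.54% with fixed-sum scaling, which also raised the members without overlap from 1 to 2. The share of all genes without overlap was not computed for that scaling. The number of lower members was 6 to 9 over all alternatives. Of 140 member fold changes under 14 alternatives 137 stayed within 1 replicate SD, except Elovl7 at -0.17 (fixed sum) and, with array weights, Fads2 at 0.12 and Fads3 at -0.29. Most of these outcomes were fixed in advance. Other filters, no trend and the replicate block cannot change a fold change. Leaving out 1 library of a group cannot move it beyond that SD. The count is therefore no measure of stability. The sign of Scd2, Fasn, Fads1, Elovl1 and Elovl7 held under all 14, and that of Scd1 changed under 4, of Elovl6 and Fads3 under 3, and of Elovl5 and Fads2 under 1. The causes were not tested.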
